A study of Homo sapiens and Mus musculus with 69 samples.

Results

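The receptor tyrosine kinases *AXL*, *MERTK* and *TYRO3*, known together as the TAM receptors, and the genes of their secreted ligands, *GAS6* and *PROS1*, were followed through every group of a bulk RNA-Seq series of small cell lung cancer (SCLC) lines. The 5 genes were taken by symbol from the table of the human lines, which lists 20516 genes, and by their title-case symbols from the table of the mouse line KP1, which lists 18501. The series held 69 libraries in 23 groups of 3, and its aim was to learn what *NOTCH1* activation and LSD1 inhibition do to SCLC cells. H82 had 7 groups, namely parental cells, cells with a doxycycline (dox)-inducible vector for the *NOTCH1* intracellular domain (*N1ICD*) without and with dox, and the same pair in vector cells with *REST* KO and in vector cells with STING KO. H524 had 5 groups, namely parental cells, the *N1ICD* vector without and with dox, and a *REST* vector without and with dox. H69 had 3 groups, namely parental cells and the *N1ICD* vector without and with dox. COR-L88 had 5 groups, namely DMSO, the LSD1 inhibitor TAS1440, and TAS1440 plus a γ-secretase inhibitor (GSI), together with DMSO and TAS1440 in cells with STING KO. KP1, a mouse SCLC line, had 3 groups, namely DMSO, TAS1440 and TAS1440 plus GSI. The methods give 1 μg/mL of dox and 100 nM of TAS1440, with 2 μM BMS-708163 as the GSI in COR-L88 and 10 μM DBZ in KP1, and 28 days of treatment in COR-L88 and more than 28 in KP1. They give at least 28 days of dox for all *N1ICD* and *REST* cells, and the legends give up to 56 days for H82 with and without *REST* KO, 56 for H524 and more than 56 for H69, so that time with dox and the line cannot be told apart. The time with dox of the H82 STING KO libraries is not given in the sources used here.

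TAM receptors sit in the plasma membrane and signal when GAS6 or protein S, the product of *PROS1*, bridges them to phosphatidylserine on the surface of dying cells. In macrophages and dendritic cells this drives the uptake of apoptotic cells and dampens innate immune responses, MERTK being the main engulfment receptor there. GAS6 binds each of the 3 receptors, whereas protein S is a ligand of MERTK and TYRO3. In carcinoma cells AXL is best known as a receptor of mesenchymal and drug-tolerant states, and TYRO3 is the member common in neural tissue.

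On GRCh37, the build of the human table, *AXL* (ENSG00000167601) spans chromosome 19, 41725128 to 41767671, *MERTK* (ENSG00000153208) chromosome 2, 112656184 to 112787138, and *TYRO3* (ENSG00000092445) chromosome 15, 41849873 to 41875787. *GAS6* (ENSG00000183087) spans chromosome 13, 114523522 to 114567049, and *PROS1* (ENSG00000184500) chromosome 3, 93591895 to 93698847. *TYRO3* and *PROS1* each have a pseudogene that could share reads, and *GAS6* overlaps 2 annotated antisense genes, so their values carry that uncertainty. The *TYRO3* pseudogene *TYRO3P* was at most 0.45 on the log2 scale in any human library, and *GAS6-AS1* and *GAS6-AS2* reached 1.92 and 2.70.

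*AXL* and *PROS1* were the members that rose with dox in all 3 lines carrying the *N1ICD* vector, and their promoters are shown for that reason. RefSeq gives *AXL* 2 start sites and *PROS1* 1, and each window runs from 250 bases before to 50 bases after the start on GRCh38.p14, chr19:41218973-41219272 and chr19:41226505-41226804 (plus strand) for *AXL* and chr3:93973847-93974146 (minus strand) for *PROS1*. Capitals mark matches, on either strand, to GTGGGAA (the core bound by RBPJ, the DNA-binding partner of N1ICD), TGANTCA (AP-1), GGAATG (TEAD), CACCTG (an E-box of the SNAIL and ZEB repressors) and GGACAG (part of the site of REST).
AXL, first start: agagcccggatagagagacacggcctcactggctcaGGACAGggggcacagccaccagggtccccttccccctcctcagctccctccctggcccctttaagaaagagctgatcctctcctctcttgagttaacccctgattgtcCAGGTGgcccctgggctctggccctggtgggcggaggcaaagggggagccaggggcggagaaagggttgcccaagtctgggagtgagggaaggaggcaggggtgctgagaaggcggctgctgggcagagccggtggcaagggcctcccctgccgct
AXL, second start: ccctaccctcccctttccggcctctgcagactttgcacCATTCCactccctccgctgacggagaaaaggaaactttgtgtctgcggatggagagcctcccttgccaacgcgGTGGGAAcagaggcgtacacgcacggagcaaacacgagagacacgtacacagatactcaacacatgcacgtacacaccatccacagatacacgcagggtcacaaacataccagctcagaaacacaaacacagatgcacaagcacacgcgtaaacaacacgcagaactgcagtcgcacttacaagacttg
PROS1: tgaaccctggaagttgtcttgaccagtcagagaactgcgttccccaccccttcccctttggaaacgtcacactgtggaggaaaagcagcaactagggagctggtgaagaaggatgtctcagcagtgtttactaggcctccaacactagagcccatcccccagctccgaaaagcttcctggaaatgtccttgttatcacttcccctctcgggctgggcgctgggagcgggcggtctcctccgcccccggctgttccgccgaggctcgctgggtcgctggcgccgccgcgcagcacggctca

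The first *AXL* window held 1 CACCTG and 1 GGACAG match, letters that 20.6% and 20.5% of the 35116 windows of this length in the table held. The second *AXL* window held 1 GTGGGAA match, found in 6.25% of all windows, and 1 GGAATG match, found in 14.0%. The *PROS1* window held none of the 5 motifs. Among the windows of the other members, the second start of *TYRO3* also held 1 GTGGGAA match, the first start of *TYRO3* 1 TGANTCA match, *GAS6* 1 CACCTG match and *MERTK* 1 GGACAG match. The windows held 7 and 17 CpG dinucleotides for *AXL* and 18 for *PROS1*, beside a median of 14 over all windows (quartiles 4 and 28) and 32 for *MERTK*, 42 for *GAS6* and 49 and 10 for the first and the second start of *TYRO3*. These matches are letters in a window and no measurement of binding.

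All levels below are the deposited log2(RPKM + 1) values, called log2 values here, and RPKM itself is given where levels of different genes are compared, since it is per transcript length. Read counts are not part of the tables, so absolute depth is unknown. From the steps between the lowest values, the human libraries ranged from 0.698 to 1.52 and the KP1 libraries from 0.872 to 1.07 times the median depth of their table. Groups were compared with limma, and a gene was called at a Benjamini-Hochberg adjusted *P* under 0.05 over all genes tested in a cell line with a log2 fold change of at least 1 in size. All *P* values given below are such adjusted values from limma. Nothing in the labels says that the 3 libraries of a group came from separate cultures, so *P* values measure the spread between these libraries only. A log2 value of exactly 0 can be a failed estimate or a silent gene, and such values are given as listed at 0. Of the 3409 human genes with a median of at least 5 over all human libraries, 128 were at 0 in some library. That count runs across lines and treatments, so it does not show which of these a 0 is. Overlap between the libraries of compared groups is stated for the members only. The share of all genes without overlap was not counted, so a lack of overlap only describes the listed values. In bulk libraries fewer cells of a type and less RNA per cell cannot be told apart, and dox-treated cells were harvested from the adherent fraction only, as the methods state.

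The labels could be checked in part. *NOTCH1* rose with dox in all 5 *N1ICD* pairs of groups, with log2 fold changes from 3.70 in H82 to 8.23 in H82 with *REST* KO. The transcript of the *REST* vector rose with dox in H524 (log2 fold change 4.01, adjusted *P* = 0.00752). *REST* mRNA was still present in the *REST* KO cells, at a mean log2 value of 4.11 without and 5.26 with dox, and *TMEM173*, the older symbol of the STING gene, was at 1.61 in H82 STING KO cells with dox and at 1.11 without the KO. RNA-Seq does not measure the proteins, the study made its KO lines as single-cell clones, and which clone was sequenced is not stated. In H82 *N1ICD* cells without dox, library 4 stood apart from libraries 5 and 6 in the members as well, and the *AXL* fold changes that rest on it are given with and without it.

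**Figure D1:**
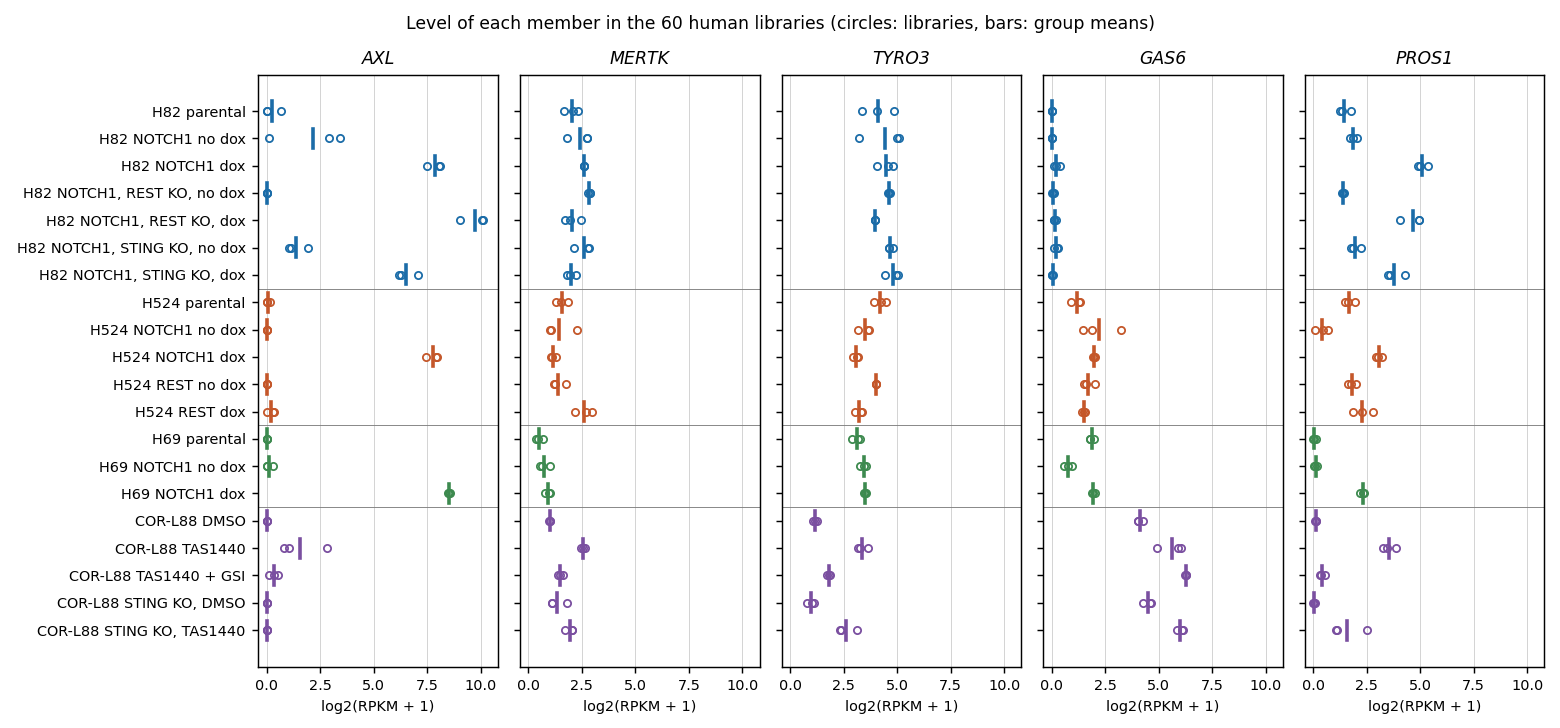
Log2(RPKM + 1) of the 5 genes (x axis) in the 20 human groups (rows), with a circle for each library and a bar at the mean of the 3 libraries. *AXL* lies above 6 in the 5 *N1ICD* groups with dox and below 3.5 elsewhere, and *GAS6* separates the lines, with COR-L88 at the top and H82 near 0.

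Before any treatment the receptor mRNA of these lines was mostly *TYRO3*. In parental H82 libraries *TYRO3* had log2 values of 4.86, 4.04 and 3.38, in parental H524 3.92, 4.25 and 4.48, and in parental H69 3.18, 3.25 and 2.91. *MERTK* was lower, at 2.33, 2.06 and 1.67 in H82, 1.85, 1.50 and 1.29 in H524, and 0.66, 0.34 and 0.42 in H69. *AXL* was at 0.68 in 1 parental H82 library and 0.13 in 1 parental H524 library and was listed at 0 in the remaining parental libraries. As a share of the summed RPKM of the 3 receptors, *TYRO3* made up 83.4% ± 2.3 of parental H82, 89.5% ± 4.5 of H524 and 95.1% ± 1.8 of H69 (mean ± SD, n = 3 libraries). COR-L88 with DMSO differed in having little of either, with *TYRO3* at 1.15, 1.07 and 1.28 and *MERTK* at 0.95, 1.01 and 0.99.

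*GAS6* levels differed widely between the lines. The gene was at or under 0.03 in parental H82, at 1.26, 1.35 and 0.92 in parental H524, at 1.79, 2.00 and 1.80 in parental H69, and at 4.05, 4.05 and 4.25 in COR-L88 with DMSO. *PROS1* ran the other way, with 1.25, 1.75 and 1.35 in H82, 1.62, 1.96 and 1.48 in H524, and values at or under 0.14 in parental H69 and in COR-L88 with DMSO. *GAS6* thus made up 0.579% of the summed ligand RPKM in parental H82, 36.0% in H524, 98.4% in H69 and 99.5% in COR-L88 with DMSO.

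In the fit of all 60 human libraries, where all 5 members passed the filter, parental H524 and H82 differed in *GAS6* alone among the members (log2 fold change 1.16, standard error 0.22, adjusted *P* = 1.98e-05), in a comparison that called 28.5% of all genes tested. Parental H69 differed from H82 in 3 members, with log2 fold changes of 1.85 for *GAS6*, -1.55 for *MERTK* and -1.39 for *PROS1*, where 41.2% of all genes were called. Against H524, parental H69 was lower in *MERTK* (-1.07), *TYRO3* (-1.11) and *PROS1* (-1.63), where 30.3% were called. The *TYRO3* difference between H69 and H82 was -0.98 (adjusted *P* = 0.00203), just short of the fold change asked for, and it was called in 4 of 6 fits that left out 1 library. The *MERTK* and *TYRO3* calls between H69 and H524 each lost the required fold change when 1 library was left out (-0.92 without H524 library 19 for *MERTK* and -0.97 without library 21 for *TYRO3*).

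Some members differed between uninduced vector cells and parental cells. In H82 *N1ICD* cells without dox, *AXL* had log2 values of 0.12, 2.92 and 3.43, against 0.68 and 2 libraries listed at 0 in parental cells. The ranges overlapped because of library 4. The log2 fold change was 1.93 (standard error 0.58, adjusted *P* = 0.0326) and 2.95 without library 4, and the call was lost in 4 of the 6 fits that left out 1 library (lowest fold change 1.29). It was 3.59 with a constant of 0.1 added to RPKM instead of 1, and the call was lost with only the compared groups in the model (adjusted *P* = 0.277). *AXL* was 1 of 4 members tested, and 6.41% of all genes were called. In H524, *N1ICD* cells without dox had more *GAS6* than parental cells (1.46, 3.24 and 1.87; log2 fold change 1.02, adjusted *P* = 0.0379) and less *PROS1* (0.06, 0.70 and 0.46; -1.28, adjusted *P* = 0.00186), where 12.1% of all genes were called. The *GAS6* fold change rests on library 23, at 3.24, and was 0.49 without it, and the call was also lost without any 1 of the parental libraries. No member was called between uninduced *REST* vector cells and parental H524 cells, and none had an unadjusted *P* under 0.05, where 0.264% of genes were called. In H69, uninduced *N1ICD* cells had less *GAS6* than parental cells, with 0.77, 0.58 and 0.94 (log2 fold change -1.10, standard error 0.10, adjusted *P* = 0.000145), and 5.27% of genes were called.

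*AXL*, the receptor tied to mesenchymal states, rose with dox in every *N1ICD* line. In H82 the 3 libraries with dox were at 8.02, 7.50 and 8.09, all far above the 3 without it, and the log2 fold change was 5.71 (standard error 0.58, 95% CI 4.51 to 6.92, adjusted *P* = 2.25e-07). Without library 4 it was 4.70. In RPKM the group means were 5.48 ± 4.95 without and 237 ± 49.2 with dox (mean ± SD, n = 3). In H524, the 3 libraries without dox listed *AXL* at 0, and it was at 7.45, 7.93 and 7.94 with it (adjusted *P* = 2.06e-13), and in H69 it was listed at 0 in 2 libraries and at 0.29 in the other without dox and was at 8.54, 8.48 and 8.50 with it (adjusted *P* = 1.80e-11). In H524 and H69 *AXL* passed the filter on low values only through the group with dox, as did *PROS1* in H69, so that these calls had to follow, and the values themselves are the result.

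*PROS1*, the protein S gene, rose in the same 3 comparisons from lower levels. In H82 the libraries went from 1.72, 2.03 and 1.86 without dox to 4.97, 5.37 and 4.89 with it, a log2 difference of 3.21 (standard error 0.24, adjusted *P* = 6.59e-09). In H524 they went from 0.06, 0.70 and 0.46 to 3.04, 3.21 and 2.95 (log2 fold change 2.66, standard error 0.23, adjusted *P* = 9.66e-07). In H69 they went from 0.18, 0.10 and 0.04 to 2.33, 2.20 and 2.39 (2.20, standard error 0.07, adjusted *P* = 1.64e-08). The groups did not overlap in any of the 3 lines.

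The other receptors did not follow *AXL*. The log2 fold change of *TYRO3* with dox was 0.07 in H82 (95% CI -0.75 to 0.90), -0.41 in H524 (-0.79 to -0.02, adjusted *P* = 0.0989) and 0.08 in H69 (-0.16 to 0.32). That of *MERTK* was 0.18 in H82 (-0.36 to 0.72) and -0.29 in H524 (-0.96 to 0.37). In H69 *MERTK* stayed under the filter, with 0.99 as its highest value, and was not tested. *GAS6* had a log2 fold change of -0.21 in H524 (-0.92 to 0.51) and was called in H69 alone, from 0.77, 0.58 and 0.94 to 1.91, 2.00 and 1.89 (1.17, standard error 0.10, adjusted *P* = 7.03e-06). With dox *GAS6* in H69 was back in the range of parental cells, 1.79 to 2.00. In H82 no library of any group reached 0.40 for *GAS6* and the gene was not tested.

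Over all genes tested, 27.1% were called with dox in H82, 18.6% in H524 and 41.8% in H69. Leaving out the members that passed the filter only through the group with dox, the members called were *AXL* and *PROS1* of 4 in H82, *PROS1* of 4 in H524 and *GAS6* of 2 in H69, all higher, and nothing is read from shares of so few genes.

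**Figure D2:**
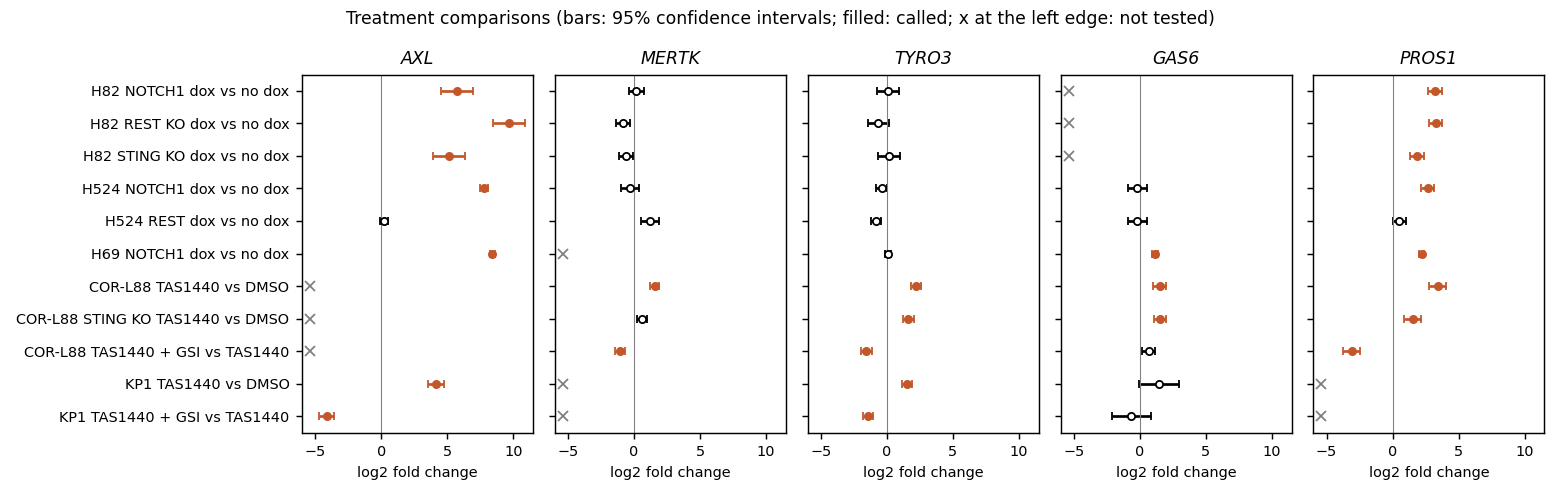
Log2 fold change of each member (x axis) in the 11 treatment comparisons of the 5 lines (rows), with 95% confidence intervals from limma. Filled points are called, and a cross at the left edge marks a gene that did not pass the filter in that line. *AXL* and *PROS1* lie to the right of 0 in all 5 *N1ICD* comparisons, and *TYRO3* and *MERTK* have filled points to the right of 0 only with TAS1440.

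Induced *AXL* came to dominate the receptor mRNA. In H82 its share of the summed receptor RPKM went from 12.2% (0.792% to 21.3% over the 3 libraries) to 89.7% ± 0.86 with dox, in H524 from 0% to 96.2% ± 0.38 and in H69 from 0.787% to 97.0% ± 0.10. The sum of the 3 receptors rose to a mean of 264 RPKM in H82, 229 in H524 and 374 in H69, from 33.9, 12.3 and 10.6 RPKM without dox. On the ligand side *GAS6* went from 92.8% to 28.7% of the ligand RPKM in H524 and from 89.3% to 41.8% in H69, ranges that did not overlap, while in H82 *PROS1* accounted for nearly all ligand mRNA in every group. Parental H524 cells were at 36.0% (33.3% to 40.1%), nearer to the cells with dox than to the uninduced vector cells. Parental H69 cells were at 98.4%. A share within a library does not depend on how libraries were scaled. With 3 libraries in a group no exact test of shares could reach 0.05, and none was made.

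**Figure D3:**
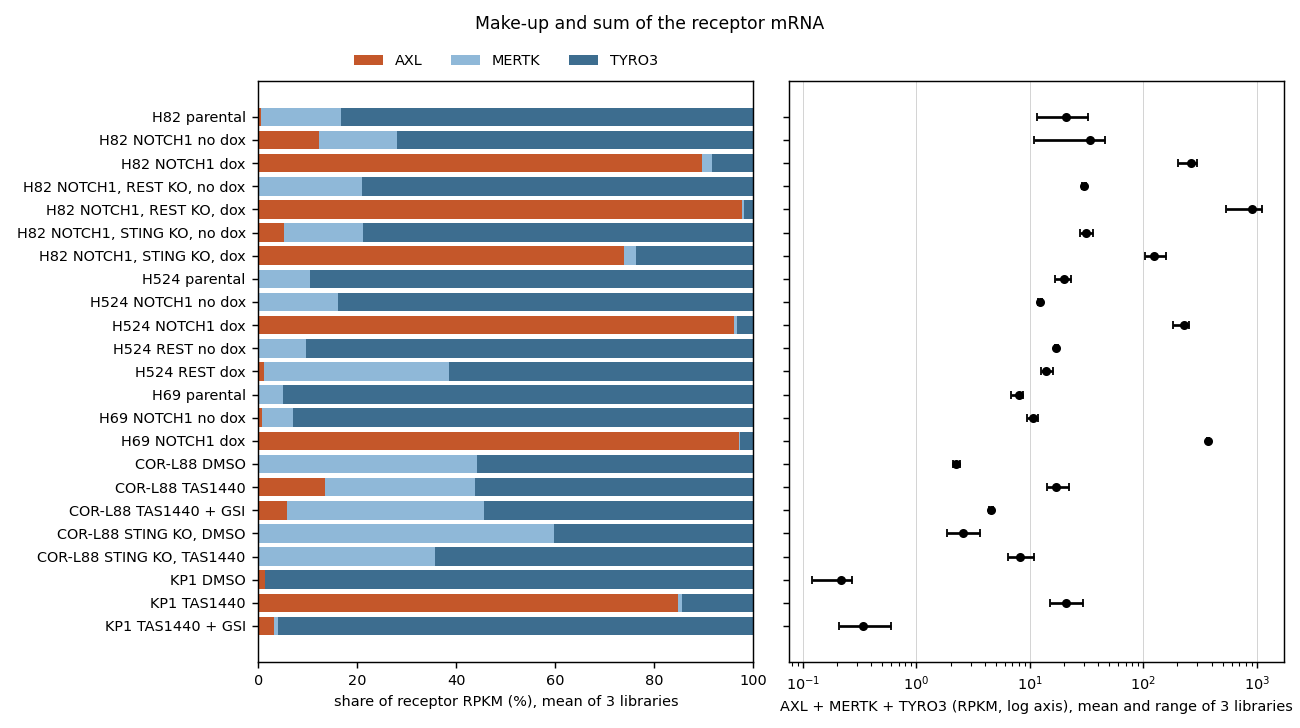
Left, the share of *AXL*, *MERTK* and *TYRO3* in their summed RPKM (x axis, percent, mean of 3 libraries) in the 23 groups. Right, that sum on a log axis, with the mean and the range of the 3 libraries. *AXL* makes up at least 73.8% on average in the 5 *N1ICD* groups with dox and in KP1 with TAS1440, and at most 13.4% elsewhere. The KP1 table was normalized on its own, so its sums cannot be set against the human ones.

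The lines differed in the size of the response. In the fit of all human libraries, *AXL* gained 2.06 more with dox in H524 than in H82 (standard error 0.60, adjusted *P* = 0.00618) and 2.69 more in H69 than in H82 (adjusted *P* = 0.000139), in comparisons of responses that called 19.7% and 43.1% of all genes. The levels with dox were close, 7.87 ± 0.32 in H82, 7.77 ± 0.28 in H524 and 8.51 ± 0.03 in H69, and the means without dox were 2.16, 0.00 and 0.10. The H524 difference was 1.42 without H82 library 6 (adjusted *P* = 0.0572), and its call was also lost with only the compared groups in the model (adjusted *P* = 0.153). Without library 4 the *AXL* differences were 3.08 for H524 and 3.71 for H69. Since *AXL* without dox was at or near 0 in H524 and H69, they also depend on the constant added to RPKM, and with 0.1 in place of 1 they were 4.43 and 4.60. The *PROS1* response in H69 minus that in H82 was -1.01 (adjusted *P* = 0.0112). It fell short of the required size after quantile normalization or median centring and in 4 of 12 fits that left out 1 library (without H82 library 4 or 8 or H69 library 49 or 53), and it turned to 0.97 (adjusted *P* = 0.132) when 0.1 in place of 1 was added to the RPKM values. *GAS6* gained 1.38 more in H69 than in H524 (adjusted *P* = 0.000258; 0.85 without H524 library 23), where 36.8% of genes were called. *TYRO3* and *MERTK* responses were not called as different between any pair of lines.

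In H82 cells with *REST* KO, every library without dox listed *AXL* at 0, and those with dox reached 10.05, 10.10 and 9.01 (adjusted *P* = 1.42e-10), a mean of 887 RPKM and the highest of all groups. *PROS1* went from 1.39, 1.43 and 1.36 to 4.94, 4.92 and 4.07 (log2 fold change 3.25, adjusted *P* = 3.48e-09). *MERTK* went from 2.80, 2.86 and 2.89 to 1.70, 1.93 and 2.45 without overlap, a log2 fold change of -0.82 (adjusted *P* = 0.0125) that did not reach the size asked for, and *TYRO3* from 4.60, 4.56 and 4.68 to 3.97, 3.95 and 3.99 (-0.65, adjusted *P* = 0.176). With 2 of 4 members called, 29.9% of all genes were called.

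Set against cells with intact *REST*, *AXL* differed both with and without dox and in opposite directions. With dox it was higher with the KO by 1.84 (standard error 0.58, adjusted *P* = 0.0172), the only member called where 17.6% of genes were. Without dox it was lower, listed at 0 in all libraries with the KO against 0.12, 2.92 and 3.43 (adjusted *P* = 0.0173), where 6.24% of genes were called. That difference was -2.16, and it was -3.18 without library 4 and -4.53 with 0.1 added to RPKM, while the call was lost with only the compared groups in the model (adjusted *P* = 0.139). The call with dox was lost with 0.1 added to RPKM (adjusted *P* = 0.173). The difference of the 2 dox responses was 4.00 for *AXL* (standard error 0.81, adjusted *P* = 0.00208), and 12.9% of all genes differed in this way. It was called in all 12 fits that left out 1 library (3.36 to 5.02, the highest without library 4) and was 6.37 with 0.1 added to RPKM, whereas the comparison with dox kept its call in 3 of 6 such fits and that without dox in 1 of 6. *PROS1* responses differed by 0.04 (95% CI -0.69 to 0.77). *NOTCH1* mRNA moved with this result: with dox it was at 8.75, 9.15 and 10.74 in *REST* KO cells and at 4.75, 4.26 and 5.56 in intact ones, and its part in the *AXL* difference was not tested. The sum of 5 fibroblast markers was likewise 404 to 617 RPKM in *REST* KO cells with dox and 121 to 215 in intact ones, and its part was not tested. Within the *REST* KO group the library with the most *NOTCH1*, at 10.74, had the least *AXL* and the least *PROS1*.

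In H82 cells with STING KO, *AXL* had values of 1.91, 1.13 and 1.03 without and 6.26, 6.17 and 7.08 with dox (log2 fold change 5.15, standard error 0.58, adjusted *P* = 1.24e-06). *PROS1* had 2.21, 1.87 and 1.74 without and 3.48, 3.59 and 4.28 with dox (1.84, standard error 0.24, adjusted *P* = 9.63e-06). These 2 of 4 members were called beside 20.2% of all genes. With dox, *PROS1* was lower with the KO than without it (-1.30, standard error 0.24, adjusted *P* = 0.000548), and its dox response with the KO minus that without was -1.37 (standard error 0.35, adjusted *P* = 0.0187; not called without library 8 or 55), in comparisons that called 16.5% and 7.12% of genes. *AXL* with dox lay below the intact cells in every library, at a difference of -1.37 (95% CI -2.58 to -0.16), and was not called (adjusted *P* = 0.0678). It was called when only the compared groups were in the model (adjusted *P* = 0.0150). The dox response of *AXL* with the KO minus that without was not called. Over the 12 fits that left out 1 library it ran from -1.20 to 0.45, so its sign was not settled. *NOTCH1* mRNA was higher with the KO, at 5.97, 7.41 and 7.48, so both *AXL* and *PROS1* had lower means in cells with more *NOTCH1* mRNA, and its part was not tested. Without dox no member was called between STING KO and intact cells, where 14.4% of genes were called. None of the 4 members tested had an unadjusted *P* under 0.05 there. Without library 4, the *AXL* difference was -1.82 and was called (adjusted *P* = 0.000961).

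*REST* overexpression in H524 gave another picture. *AXL* was listed at 0 without dox and was at 0.26, 0.32 and listed at 0 in the 3 libraries with dox. *MERTK* went from 1.75, 1.17 and 1.24 to 2.96, 2.18 and 2.70, without overlap, a log2 fold change of 1.23 just over the threshold on *P* (95% CI 0.56 to 1.90, adjusted *P* = 0.0517). *TYRO3* went from 4.03 in each library to 3.35, 3.31 and 3.05 (-0.80, adjusted *P* = 0.0311). No member was called, where 1.87% of all genes were, and 2 of 5 had an unadjusted *P* under 0.05. *MERTK* was called when libraries were centred on their medians or when only the compared groups were in the model.

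The 2 vectors could be compared with each other in H524. With dox, *N1ICD* cells had more *AXL* than *REST* cells (7.45 to 7.94 against at most 0.32; log2 fold change 7.58, adjusted *P* = 2.38e-13) and less *MERTK* (1.03, 1.27 and 1.10 against 2.96, 2.18 and 2.70; -1.48, standard error 0.31, adjusted *P* = 0.00172), in a comparison that called 23.8% of all genes. The dox responses differed in *AXL* by 7.58 (adjusted *P* = 3.04e-11), in *PROS1* by 2.16 (adjusted *P* = 0.000370) and in *MERTK* by -1.52 (adjusted *P* = 0.0265), where 15.6% of genes were called. *AXL* passed the filter in H524 only through *N1ICD* cells with dox, so both of its calls here had to follow, and its levels are the result. *PROS1* means were 0.41 in uninduced *N1ICD* cells and 1.79 in uninduced *REST* cells. With dox they were 3.07 and 2.29, and *PROS1* was not called between the 2 vectors. The *MERTK* response difference kept its call in 6 of the 12 fits that left out 1 library, with the highest adjusted *P* at 0.0663. *REST* cells with dox held 37.6% of their receptor RPKM as *MERTK* and 61.4% as *TYRO3*, against 9.66% and 90.3% without dox.

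LSD1 inhibition in COR-L88 raised a different set of members. With TAS1440, *TYRO3* went from 1.15, 1.07 and 1.28 to 3.16, 3.64 and 3.27 (log2 fold change 2.19, standard error 0.19, adjusted *P* = 5.02e-07). *MERTK* went from 0.95, 1.01 and 0.99 to 2.64, 2.46 and 2.54 (1.57, standard error 0.17, adjusted *P* = 3.39e-06). *GAS6* went from 4.05, 4.05 and 4.25 to 4.93, 6.02 and 5.91 (1.50, standard error 0.22, adjusted *P* = 6.61e-05). *PROS1* went from 0.14, 0.11 and 0.09 to 3.26, 3.44 and 3.87 (3.41, standard error 0.29, adjusted *P* = 4.49e-07). No group overlapped its control. The 4 members tested were called, where 22.8% of all genes were called. *PROS1* reached the filter only through the TAS1440 groups, so its call had to follow.

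*AXL* did not reach the filter in COR-L88. It was listed at 0 in all 3 DMSO libraries and was at 1.02, 2.82 and 0.82 with TAS1440, a mean of 2.62 ± 2.99 RPKM. Without the filter this difference was called (1.55, adjusted *P* = 0.00494), and the value of 2.82 comes from a library whose *NOTCH1*, at 2.79, was also the highest of the group. The libraries at 1.02 and 0.82 had *NOTCH1* at 1.99 and 2.26, the opposite order. Receptor RPKM with TAS1440 was 56.2% *TYRO3*, 30.4% *MERTK* and 13.4% *AXL*, a make-up unlike that of the *N1ICD* groups.

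GSI was given together with TAS1440, as the study states, and the members split. *PROS1* was lower than with TAS1440 alone, at 0.55, 0.36 and 0.32 (log2 fold change -3.11, adjusted *P* = 4.19e-06). So were *TYRO3*, at 1.86, 1.82 and 1.73 (-1.55, adjusted *P* = 2.66e-05), and *MERTK*, at 1.37, 1.63 and 1.49 (-1.06, adjusted *P* = 0.000198), where 14.7% of genes were called. Only groups with TAS1440 and no GSI carried *PROS1* past the filter, so its call here had to follow, and its levels are the result. The *MERTK* value fell short of the required size when libraries were quantile normalized (-0.93) or centred on their medians (-0.92) and without library 16 (-0.99). *GAS6* was not lower and was at 6.30, 6.24 and 6.30, above each library with TAS1440 alone (0.66, 95% CI 0.18 to 1.14, adjusted *P* = 0.0257). Against DMSO, *GAS6* with TAS1440 plus GSI was higher by 2.16 (standard error 0.22, adjusted *P* = 8.14e-06), the 1 member called of 4, where 9.02% of genes were called. *TYRO3* and *MERTK* had smaller differences from DMSO, of 0.64 (adjusted *P* = 0.0236) and 0.51 (adjusted *P* = 0.0388). *AXL* was at 0.53, 0.11 and 0.33, a difference from TAS1440 alone of -1.23 that was called without the filter (adjusted *P* = 0.0231). *NOTCH1* mRNA was highest in these libraries, at 6.73, 6.71 and 6.75, while GSI prevents the cleavage that frees the intracellular domain.

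In COR-L88 cells with STING KO, *AXL* was listed at 0 in all 6 libraries, with DMSO and with TAS1440 alike. TAS1440 raised *GAS6* from 4.62, 4.25 and 4.61 to 6.12, 5.86 and 6.08 (log2 fold change 1.53, adjusted *P* = 9.02e-05), *TYRO3* from 0.81, 1.13 and 1.03 to 2.34, 3.12 and 2.36 (1.61, adjusted *P* = 1.37e-05) and *PROS1* from values at or under 0.09 to 1.11, 2.49 and 1.08 (1.52, standard error 0.29, adjusted *P* = 0.000789), with 16.0% of all genes called. Because *PROS1* passed the filter in COR-L88 only through groups with TAS1440, its call here adds nothing to its levels. *MERTK* went from 1.08, 1.78 and 1.11 to 2.03, 2.04 and 1.70 (0.60, adjusted *P* = 0.0102) with overlapping ranges.

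With TAS1440, *PROS1* was lower in the STING KO cells than in intact cells (-1.96, standard error 0.29, adjusted *P* = 0.000437), the only member called of the 4 tested, where 6.53% of genes were. Without the filter *AXL* was called as well (-1.55, adjusted *P* = 0.0129). The TAS1440 response of *PROS1* with the KO minus that without was -1.89 (standard error 0.41, adjusted *P* = 0.0154), in a comparison that called 4.23%, and this call was lost when 0.1 in place of 1 was added to the RPKM values, at a similar difference of -1.93 (adjusted *P* = 0.0869). The response of *GAS6* differed by 0.03 (95% CI -0.64 to 0.71). *MERTK* responses differed by -0.97 (adjusted *P* = 0.0254), a value that was called in 5 of 12 fits that left out 1 library, and *TYRO3* responses by -0.58 (adjusted *P* = 0.194). With DMSO, no member was called between the 2 genotypes or had an unadjusted *P* under 0.05, where 1.47% of genes were called. *NOTCH1* mRNA with TAS1440 was at 4.58, 2.82 and 4.93 with the KO and at 1.99, 2.79 and 2.26 without it, and *TMEM173* was lower with the KO (1.07 against 2.20). The summed neuroendocrine markers with TAS1440 were at 147 to 276 RPKM with the KO and 75.6 to 113 without it. The summed fibroblast markers were at 0.0652 to 0.190 and 1.22 to 4.16 RPKM, and the part of these differences was not tested. The *PROS1* response was thus smaller with STING KO in both H82 and COR-L88, and neither call held in every alternative fit. In COR-L88 the *MERTK* and *TYRO3* responses were smaller in value too, and *AXL* stayed listed at 0 with the KO. *TMEM173* was not lower with the KO in H82 with dox (1.61 against 1.11), and which clones were sequenced is not stated. The part of STING was not tested.

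In mouse KP1 cells the receptors were nearly silent at the start, and TAS1440 raised 2 of them. *Axl* (chromosome 7, 25757273 to 25788705 of GRCm38) was at or under 0.01 with DMSO and at 3.97, 4.85 and 3.66 with TAS1440 (log2 fold change 4.15, standard error 0.25, adjusted *P* = 4.36e-06). *Tyro3* (chromosome 2, 119797733 to 119818104) was at 0.33, 0.34 and 0.16 with DMSO and at 1.90, 1.49 and 2.09 with TAS1440 (1.55, standard error 0.17, adjusted *P* = 0.000114). Both passed the filter through the TAS1440 group only, so these calls had to follow, and the levels are the result. Over all genes tested 18.8% were called. *Mertk* was at most 0.25 and *Pros1* at most 0.58 in any library, and neither was tested.

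With TAS1440 and GSI given together, both receptors were near their DMSO levels. *Axl* was at 0.01, 0.01 and 0.03 with TAS1440 plus GSI (log2 fold change -4.14 against TAS1440, adjusted *P* = 6.53e-06) and *Tyro3* at 0.26, 0.26 and 0.65 (-1.43, adjusted *P* = 0.000210), where 16.5% of genes were called. Since both genes passed the filter through the group with TAS1440 alone, these calls had to follow too, and the levels are the result. Against DMSO no member was called or had an unadjusted *P* under 0.05, where 1.21% of genes were called, and the log2 fold changes were 0.01 (95% CI -0.56 to 0.58) for *Axl* and 0.11 (-0.27 to 0.50) for *Tyro3*. *Notch1* was at 0.06, 0.04 and 0.03 with DMSO, 1.45, 1.33 and 0.95 with TAS1440 and 0.23, 0.41 and 0.54 with GSI added.

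*Gas6* spread widely in KP1 with TAS1440, at 0.12, 1.58 and 3.56, against 0.33, 0.36 and 0.24 with DMSO and 0.89, 1.34 and 1.12 with GSI added. The log2 fold change of TAS1440 was 1.44 (95% CI -0.06 to 2.95, adjusted *P* = 0.123), and it was 2.26 and called without library 4, the library at 0.12 (adjusted *P* = 0.00817). That was the only call in 6 fits that left out 1 library. Only groups with TAS1440, without or with GSI, carried *Gas6* past the filter, so its levels are the result. Over the same 3 libraries the summed RPKM of 8 neuroendocrine marker genes was 0.530, 7.80 and 63.5, in the same order as *Gas6*, whereas *Axl* was highest in the library in the middle.

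**Figure D4:**
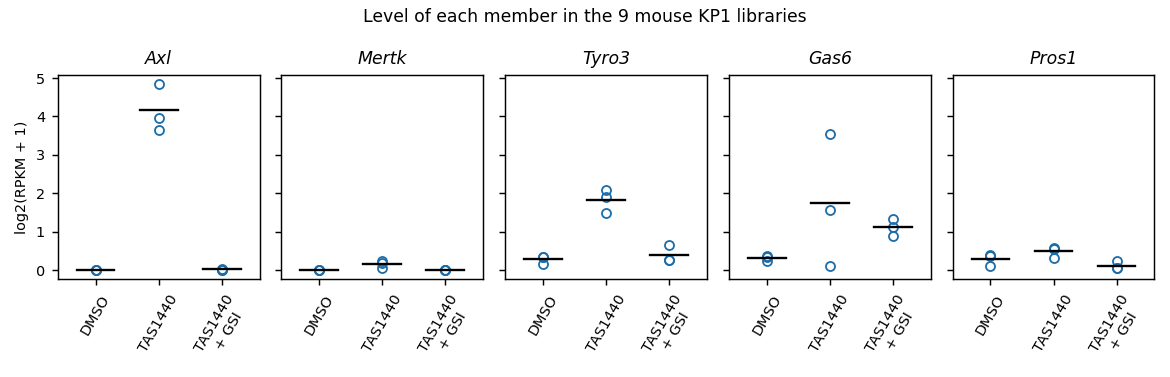
Log2(RPKM + 1) of the 5 genes (y axis) in the 3 groups of KP1 (x axis), with a circle for each library and a bar at the mean. *Axl* and *Tyro3* are high with TAS1440 alone, *Gas6* is spread from 0.12 to 3.56 in that group, and *Mertk* and *Pros1* stay below 0.6.

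Across the 20 human groups, the order of *AXL* had *REST* KO cells with dox at the top (9.72 ± 0.62), then H69 (8.51 ± 0.03), H82 (7.87 ± 0.32), H524 (7.77 ± 0.28) and H82 STING KO cells (6.50 ± 0.50), all with *N1ICD* and dox. Of the neighbours among these 5, only H82 and H524 overlapped. A wide gap followed to H82 *N1ICD* cells without dox at 2.16 ± 1.78. Over the whole order 14 neighbouring pairs overlapped and 5 did not, and 28 libraries listed *AXL* at 0. *MERTK* varied least, from 0.34 to 2.96 over all human libraries, with 18 neighbouring pairs overlapping and 1 not. *TYRO3* ran from 0.81 to 5.07 (15 overlapping and 4 not), with the means of all 7 H82 groups above those of every COR-L88 and H69 group. *GAS6* ran from 0 to 6.30 (13 and 6), with the 5 COR-L88 groups at the top and the 7 H82 groups at the bottom. *PROS1* ran from 0 to 5.37 (16 and 3), with the H82 groups with dox and COR-L88 with TAS1440 at the top.

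**Figure D5:**
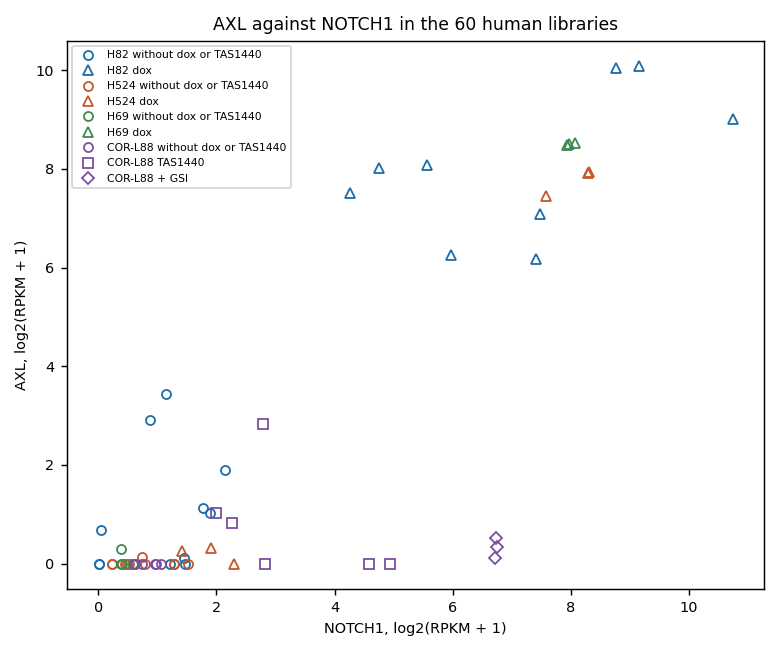
Log2(RPKM + 1) of *AXL* (y axis) against *NOTCH1* (x axis) in the 60 human libraries, by line (color) and treatment (shape). *NOTCH1* values include the vector's transcript. Libraries with dox from *N1ICD* cells lie at *AXL* values of 6.17 or more, whereas COR-L88 libraries with GSI have *NOTCH1* near 6.7 and *AXL* of at most 0.53.

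The genes whose 20 group means followed *AXL* most closely, among 15331 genes compared, were *ACTA2* (smooth muscle actin, Pearson's *r* = 0.98), *JPH2* (junctophilin, 0.98) and *PDGFRB* (a platelet-derived growth factor receptor, 0.98). Those of *PROS1* were *NTN4* (a netrin, 0.93), *USP25* (a deubiquitinase, 0.92) and *GPX8* (0.91), those of *GAS6* were *KLHL35* (0.97), *LAD1* (0.97) and *PDCD6* (0.95), those of *TYRO3* were *PLCD3* (0.93), *FAM115A* (0.90) and *GAREML* (0.90), and those of *MERTK* were *DHDDS* (0.87), *FNDC4* (0.86) and *HIPK1* (0.86). Between members, *AXL* and *PROS1* had *r* = 0.79 and *TYRO3* and *GAS6* had *r* = -0.79. These are descriptions over 20 group means that share lines and vectors.

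Markers of cell identity shifted in the groups where *AXL* rose, and also in some where it did not. The summed RPKM of 8 neuroendocrine markers was 25.1 to 49.8 in H82 *N1ICD* libraries with dox, 13.3 to 14.3 in H69 with dox, and 631 to 1531 in H524 with dox, against at least 8680 in H82, 1183 in H69 and 12340 in H524 without dox. *INSM1*, *CHGA*, *CHGB* and *SYP*, genes of secretory granules and their regulation, fell in each of the 5 treatment comparisons, and of this list 7 of 7, 7 of 8, 7 of 8, 7 of 8 and 6 of 6 genes tested fell in H82, H524, H69, COR-L88 and KP1. In H524 the remaining gene was called higher. In COR-L88 the same sum was 732 to 838 RPKM with DMSO, 75.6 to 113 with TAS1440 and 327 to 383 with GSI added, and in KP1 it was 596 to 652, 0.530 to 63.5 and 482 to 609. COR-L88 cells with STING KO had 1196 to 1310 RPKM with DMSO and 147 to 276 with TAS1440, while *AXL* stayed listed at 0. The sum of 5 fibroblast markers rose from 1.24 to 12.2 RPKM to 121 to 215 in H82, from 1.54 to 3.48 to 151 to 177 in H524 and from 92.1 to 149 to 2322 to 2513 in H69. It was 208 to 240 in H82 STING KO cells with dox. Parental H69 cells had 11.2 to 12.8, so this sum was already higher in uninduced H69 vector cells, where *AXL* was at or near 0. In KP1 it was 0.0606 to 0.130 RPKM with DMSO, 14.7 to 68.5 with TAS1440 and 0.116 to 0.585 with GSI added, and in COR-L88 it was at most 0.104, 4.16 and 0.328. Of these markers *PDGFRB* was called in all 3 lines, by 4.87, 6.29 and 6.09, and *Pdgfrb* in KP1 by 3.60, while *COL1A2* was listed at 0 in every H82 library with dox and *DCN* was at most 0.74 there. The whole KP1 sum was at most 0.585 RPKM outside the group with TAS1440 alone. *Pdgfrb* thus passed the filter only through that group, and its call had to follow. Among 5 leukocyte markers, *PTPRC*, the pan-leukocyte gene CD45, was at most 0.38 in any human library, and *Ptprc* was at most 0.00163 in KP1. *CD14* was called in H69 (1.51) and *Cd14* in KP1 (1.28), and *CD68* in COR-L88 (2.04). The part of these shifts in the *AXL* values was not tested.

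Genes around the TAM receptors were followed in lists covering ligands, processing, target membrane and signaling, in the comparisons of dox in H82, H524 and H69 and of TAS1440 in COR-L88 and KP1. Over all genes tested, the median log2 fold change was -0.00264, -0.0181, 0.0827, 0.00797 and 0.0210 in these comparisons, and 27.1%, 18.6%, 41.8%, 22.8% and 18.8% of genes were called, the background for the counts of each list below. Which groups carried list and other marker genes past the filter was not examined, so calls of genes low without treatment may have had to follow. Of the 3 other proposed ligands, *LGALS3* (galectin-3) rose in H82 (1.15) and in COR-L88 (4.49, adjusted *P* = 2.59e-09). *TUB* (tubby) rose in COR-L88 (2.02) and fell in H69 (-2.32) and KP1 (-1.45), and *TULP1* fell in H82 (-1.71). In H524 none of these was called, with 1 tested.

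GAS6 and protein S must be carboxylated with vitamin K to bind phosphatidylserine. Of the 4 genes of this step, *GGCX*, the carboxylase, rose in H69 (1.18), and *NQO1* rose in H524 (2.86) and H69 (1.40). *VKORC1*, the epoxide reductase that warfarin targets, fell in H82 (-1.53). None was called in COR-L88 or KP1, with medians of 0.83 over 4 genes and 0.46 over 2.

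AXL and MERTK are shed from the cell surface by ADAM10 and ADAM17, which TIMP3 and TIMP1 restrain. *TIMP3* rose in all 5 comparisons, by 3.61 in H82, 5.29 in H524, 2.13 in H69, 2.11 in COR-L88 and 4.71 in KP1, and *TIMP1* rose in the 4 human ones, by 1.03, 1.15, 4.15 and 2.44. *ADAM17* rose in COR-L88 (1.11) and had log2 fold changes of 0.33 to 0.49 in the dox comparisons. Of this list 2 of 4 were called in each dox comparison, 3 of 4 in COR-L88 and 1 of 3 in KP1, and all were higher.

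Of the genes that expose or hide phosphatidylserine, *PLSCR1*, a scramblase, rose in H82 (1.39), H69 (1.75), COR-L88 (1.76) and KP1 (1.67). *ANO6*, the calcium-activated scramblase, rose in H82 (1.01), H524 (1.35) and COR-L88 (1.46), and *ATP8A1*, a flippase that returns the lipid to the inner leaflet, fell in H82 (-3.19), H524 (-2.38) and H69 (-2.20). Called genes numbered 3 higher and 2 lower of 7 in H82, 1 and 2 of 9 in H524, 1 and 2 of 8 in H69, 2 and 0 of 7 in COR-L88 and 1 and 0 of 4 in KP1, with medians of 0.47, 0.06, 0.08, 0.74 and 0.59. These are shares of 71.4%, 33.3%, 37.5%, 28.6% and 25.0% of the genes tested, in H69 close to the 41.8% of all genes.

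Among other receptors and bridging molecules for phosphatidylserine, *ITGAV*, the integrin chain that binds MFGE8, rose in all 5 comparisons, by 4.38, 2.13, 3.32 and 2.20 in H82, H524, H69 and COR-L88 and by 3.53 in KP1. *MFGE8*, a bridging molecule, rose in H524 (2.07), H69 (5.20), COR-L88 (1.20) and KP1 (2.93), and *ITGB5* in the same 4 (2.10, 2.82, 3.02 and 1.57). *LRP1* rose in H82 (2.47), H524 (3.43), H69 (1.66) and KP1 (1.81). Called genes numbered 4 higher and 2 lower of 10 in H82, 7 and 1 of 10 in H524, 7 and 0 of 8 in H69, 4 and 0 of 6 in COR-L88 and 4 and 1 of 5 in KP1, with medians from 0.96 to 2.37. The shares called, 60.0%, 80.0%, 87.5%, 66.7% and 100%, lay above those of all genes.

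The engulfment machinery downstream of these receptors gave 2 higher and 0 lower of 9 in H82, 2 and 1 of 9 in H524, 6 and 1 of 9 in H69, 2 and 1 of 9 in COR-L88 and 1 and 0 of 5 in KP1. The shares called were 22.2%, 33.3%, 77.8%, 33.3% and 20.0%, in H82 and KP1 close to those of all genes. *GULP1*, an adaptor, rose in H82 (7.14), H524 (2.30) and H69 (2.26), *BCAR1* in H82 (1.22), H69 (1.45) and COR-L88 (1.22), and *RHOG* in H524 (1.33), H69 (1.18) and KP1 (1.20). *ELMO1* fell in H524 (-2.29), H69 (-5.81) and COR-L88 (-1.75).

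Signaling genes of the TAM pathway gave 2 higher and 0 lower of 21 in H82, 4 and 0 of 22 in H524, 4 and 1 of 21 in H69, 5 and 0 of 23 in COR-L88 and 2 and 1 of 17 in KP1, and medians from 0.04 to 0.31. The shares called were 9.52%, 18.2%, 23.8%, 21.7% and 17.6%. They were below those of all genes in H82 and H69 and close to them in H524, COR-L88 and KP1. *SOCS3*, a suppressor of cytokine signaling induced by TAM receptors in dendritic cells, rose in H82 (2.96), H524 (1.98), H69 (1.12) and COR-L88 (2.88), and *Socs3* fell in KP1 (-1.01, adjusted *P* = 0.0459). *SHC1*, an adaptor, rose in H82 (1.08), H524 (2.71), H69 (2.79) and KP1 (1.28). *VAV3* rose in H524 (2.12) and COR-L88 (1.96), and *PIK3R1* fell in H69 (-1.77) and rose in KP1 (1.09).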

How the data were processed

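Bulk RNA-Seq of 60 human and 9 mouse libraries was analysed as deposited. The authors deposited 1 table per species of log2 values, log2(RPKM + 1) with TMM scaling, made with Cutadapt, STAR, RSEM and edgeR on hg19 or mm10 per the labels and the study's methods, with no versions given, and each table was normalized separately. Groups followed the labels. limma 3.58.1 in R 4.3.3, with a mean-variance trend, was fitted with 1 mean per group in each line, and in all human libraries for comparisons between lines. A gene entered a fit where 3 or more of its libraries reached a log2 value of 1, *P* values were adjusted by Benjamini-Hochberg over all genes in it, and calls needed an adjusted *P* under 0.05 and a log2 fold change of at least 1 in size. The fits were tested on simulated data. RPKM was recovered as 2 to the power of the value, less 1, for shares. The members were the 5 genes of the family and its ligands, all described. Beside them were named, from each list, up to 4 genes called in the most of the 5 treatment comparisons (ties by mean size of the fold change), and for each member the 3 genes with the highest Pearson's *r* over the 20 human group means. Some list genes are counted with their lists and not reported here by name. Members and lists were chosen with earlier results of these data known. Promoter sequences came from RefSeq (GRCh38.p14), and gene coordinates from GENCODE on GRCh37 and GRCm38. Read depth is not known from these values, so no counting interval is given, and nothing in the labels says whether libraries of a group were separate cultures, so *P* values measure the spread between these libraries only. Python 3.11.15 was used for tables and figures. The alternatives were no filter, a pseudocount of 0.1, quantile normalization, median centring, variances without a trend, only the compared groups in the model, and leaving out each library.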

Additional observations from a re-analysis of the deposited data

Results flagged for a closer look

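The responses below differed between genotypes, vectors or lines by a test of the difference itself in limma with Benjamini-Hochberg adjustment, and are given as values in log2 units. The dox response of *AXL* in H82 with *REST* KO minus that in intact cells was 4.00 (adjusted *P* = 0.00208), and that of *PROS1* in H82 with STING KO minus intact was -1.37 (adjusted *P* = 0.0187). In H524 the response to *N1ICD* minus that to *REST* was 7.58 for *AXL*, 2.16 for *PROS1* and -1.52 for *MERTK*. In H524 only the *N1ICD* cells with dox carried *AXL* past the low-value filter, so its difference had to follow and is a value with no support from the test. *PROS1* without dox was lower in the *N1ICD* than in the *REST* vector cells (means 0.41 and 1.79), and with dox it was not called between them. In COR-L88 the TAS1440 response of *PROS1* with STING KO minus intact was -1.89 (adjusted *P* = 0.0154). Between lines, the *AXL* response to dox differed by 2.06 for H524 minus H82 and by 2.69 for H69 minus H82 (3.08 and 3.71 without H82 library 4), the *PROS1* response by -1.01 for H69 minus H82, and the *GAS6* response by 1.38 for H69 minus H524. The groups hold 3 libraries each, too few for a test of single outlying libraries.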

How the results depend on the processing

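No paired analysis was possible because the compared groups share no replicate numbers, library numbers being unique within a species. Over all members, comparisons and alternatives, 1856 fold changes kept direction and side of the threshold, 30 gained and 45 lost a call, and 1 reversed, the *PROS1* response in H69 minus that in H82 (0.97 with a pseudocount of 0.1). The causes were not tested. With a pseudocount of 0.1, members called became 0 for dox *REST* KO against intact H82 (1 before), 2 for the response of H524 minus H82 (1) and 1 for that of H69 minus H82 (2), and genes called became 1311 for uninduced *REST* KO against intact H82 (867 before), 95 for uninduced *REST* H524 against parental (36) and 372 for COR-L88 STING KO against intact with DMSO (193). Without the filter, members called became 0 for uninduced H82 against parental (1), 1 for uninduced *N1ICD* H524 against parental (2) and 2 for COR-L88 STING KO against intact with TAS1440 (1), and genes called 19 for uninduced *REST* H524 against parental. With only the compared groups in the model, members called became 2 for dox STING KO against intact H82 (1), 0 for uninduced *REST* KO against intact H82 (1), 0 for uninduced H82 against parental, 1 for *REST* dox in H524 (0), 1 for uninduced *N1ICD* H524 against parental and 0 for the response of H524 minus H82, and genes called 373 for uninduced H82 against parental (891), 397 for *REST* dox in H524 (255) and 641 for uninduced *N1ICD* H524 against parental (1651). Median centring gave 1 member for *REST* dox in H524. With 1 library left out, members called ranged from 0 to 1 in H82 for dox and uninduced *REST* KO against intact, uninduced STING KO against intact, uninduced against parental and the STING KO response, and for the responses of H524 minus H82 and H69 minus H524, from 1 to 2 for uninduced *N1ICD* H524 against parental, COR-L88 STING KO against intact with TAS1440, the H82 *REST* KO response and the COR-L88 STING KO response, and from 1 to 3 for H69 minus H82. Genes called ranged from 620 to 1584 for uninduced H82 against parental (891 with all, 1584 without library 4), 112 to 298 for *REST* dox in H524 (255 with all, 137 or fewer without library 35, 36, 38 or 39), 17 to 52 for uninduced *REST* H524 against parental (36 with all, 22 or fewer without library 19, 34, 35 or 36), 125 to 271 for COR-L88 STING KO against intact with DMSO (193 with all, lowest without library 42), 49 to 100 for KP1 with TAS1440 plus GSI against DMSO (100 with all, 58 or fewer without library 1, 2 or 8) and 335 to 911 for the COR-L88 STING KO response (556 with all, 335 without library 43, 367 without 11 and 911 without 44). Absolute depth is not known, so low levels such as *AXL* in COR-L88 or *Mertk* in KP1 carry no counting interval.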
